A study of Mus musculus with 44 samples.

Results

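A set of 10 genes named as classical targets of the liver X receptors and retinoid X receptors were followed through a study of viral RXRa overexpression in the mouse nucleus accumbens, a ventral striatal region of the reward circuit. The members were Abca1, Abcg1, Srebf1, Mylip, Apoe, Lpcat3, Scd1, Scd2, Fasn and Lpl, taken by symbol from 55487 genes, and all 10 passed the filter on low counts in both tables of the study. Bulk tissue was taken from males infused with a herpes simplex vector, either HSV-GFP (4 libraries) or HSV-RXRa-GFP (4 libraries). Sorted D1 and D2 nuclei, called after the dopamine receptors Drd1 and Drd2 of striatal neurons, came from animals given AAV9-CAG-DIO-EGFP or AAV9-CAG-DIO-EGFP-P2A-RXRa, adeno-associated vectors whose insert is expressed only where Cre recombinase is active. The sorted libraries with a group comprised 5 EGFP and 4 RXRa libraries each for D1 females, D1 males and D2 males, while D2 females had 4 of each vector. Every animal group, controls included, carried a viral vector and a fluorescent protein. The CAG promoter is a strong general promoter, so the transgene does not follow the native control of Rxra. The labels do not give the age, the Cre line, the time after infusion or whether libraries came from separate or pooled animals, so p-values measure the spread between these libraries, which may be partly technical.

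Retinoid X receptors are nuclear receptors that bind DNA as partners of other receptors. With a liver X receptor, Nr1h3 (LXR alpha) or Nr1h2 (LXR beta), they form a dimer that senses oxysterols and turns on genes for cholesterol export and fatty acid synthesis. In the brain this programme is best known from astrocytes and microglia, which supply lipid to neurons. The members cover its main branches. Abca1 and Abcg1 pump cholesterol out of cells, and Apoe is the main lipid carrier of the brain. Mylip is a ubiquitin ligase that sends lipoprotein receptors to degradation. Srebf1 encodes the transcription factor SREBP1, Fasn builds fatty acids, Scd1 and Scd2 desaturate them, Lpcat3 places unsaturated chains into phospholipids, and Lpl hydrolyses triglycerides at the cell surface.

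RefSeq promoter windows (GRCm38.p6, 250 bases before to 50 bases after each start) were matched for 6 of the 10 members, in 10 windows, and Abcg1, Scd1, Scd2 and Lpl were not matched. The windows were searched on both strands for DR4, the LXR-RXR element made of AGGTCA repeated in the same direction with 4 bases between. DR1, with 1 base between, and TCACNCCAC, a sterol regulatory element of the kind SREBP factors bind, were searched too. No member window held a DR4 or DR1 with at most 2 mismatches, or the sterol element. Of 32851 windows in all, 3.023% held such a DR4, 3.86% a DR1 and 1.242% a sterol element. The 3 windows closest to DR4 are shown because they carry nearly the same sequence. Capitals mark the 2 repeat units of the closest match, which lies on the opposite strand, and the 250 bases before the start are printed along the strand of the gene, here the minus strand of the chromosome.
Abca1, chr4:53159896-53160145: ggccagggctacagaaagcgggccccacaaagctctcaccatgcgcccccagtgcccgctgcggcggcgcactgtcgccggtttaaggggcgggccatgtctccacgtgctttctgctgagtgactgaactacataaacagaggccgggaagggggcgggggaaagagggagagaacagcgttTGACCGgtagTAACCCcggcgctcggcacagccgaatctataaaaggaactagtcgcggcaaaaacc
Fasn, chr11:120824548-120824797: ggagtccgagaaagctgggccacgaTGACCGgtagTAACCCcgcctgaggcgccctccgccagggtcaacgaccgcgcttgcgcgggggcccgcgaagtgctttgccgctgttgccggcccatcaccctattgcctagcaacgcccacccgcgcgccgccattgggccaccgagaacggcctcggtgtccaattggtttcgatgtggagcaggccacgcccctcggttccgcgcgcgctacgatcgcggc
Srebf1, chr11:60210472-60210721: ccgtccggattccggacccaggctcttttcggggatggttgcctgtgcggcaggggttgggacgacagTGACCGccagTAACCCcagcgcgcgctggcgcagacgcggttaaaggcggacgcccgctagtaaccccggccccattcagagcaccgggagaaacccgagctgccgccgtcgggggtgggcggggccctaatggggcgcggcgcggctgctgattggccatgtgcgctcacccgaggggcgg

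Read from the opposite strand, the match is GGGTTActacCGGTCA in Abca1 and in Fasn and GGGTTActggCGGTCA in Srebf1, each with 3 mismatches to the repeat units. It lies at positions -67 to -52 from the start in Abca1, -225 to -210 in Fasn and -182 to -167 in this Srebf1 window, 1 of 3 windows for that gene. A DR4 with 3 mismatches was present in 21.884% of all windows. The exact pattern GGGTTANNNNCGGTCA, taken from Abca1 after the windows had been seen, was present in 3 of 32851 windows (0.0091%), which are these 3. These matches describe letters only, and no binding was measured. A count of mismatches to AGGTCA cannot show whether these genes carry or lack a working LXR-RXR element. In D2 nuclei Abca1 fell, Fasn rose and Srebf1 did not pass the test.

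The smallest and largest bulk totals were 21567565 and 29167142 counts, and those of the 35 sorted libraries 12211655 and 27757463. The vector RXRa sequence had 0 counts in bulk controls and 567 to 914 in bulk RXRa libraries. It had 0 to 17 counts in sorted EGFP libraries and 1216 to 13017 in sorted RXRa libraries. The summed level of the 5 D2 neuron markers found was 762 to 2743 CPM (counts per 1000000 of the TMM-scaled library size) in D2 libraries and 94.98 to 364 CPM in D1 libraries. The sorted libraries also held reads from 19640 genes with a bulk count of 0 throughout, here called silent genes. These made up 3.81% to 7.33% of a sorted library's counts, with a median of 6.09% in EGFP and 5.23% in RXRa libraries.

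In bulk tissue the members stood at very different levels. Per kb of exon, the HSV-GFP libraries gave Apoe 741 ± 95.7 CPM and Scd2 263 ± 11.9 CPM (SD, n = 4). Fasn followed at 37.0 ± 0.719 CPM per kb. Scd1 at 26.4 ± 2.72, Srebf1 at 23.0 ± 2.48, Abcg1 at 21.0 ± 1.24 and Abca1 at 17.8 ± 4.24 CPM per kb formed a middle group in which the mean ± SD of each neighbour overlapped that of the next. Lpl at 9.55 ± 0.905, Mylip at 8.78 ± 0.673 and Lpcat3 at 7.88 ± 0.888 CPM per kb were lowest, and these neighbours overlapped in the same way.

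RXRa changed none of the 10 members in bulk tissue by the test used, edgeR's quasi-likelihood test with Benjamini-Hochberg adjustment over all genes and a threshold of 0.05. Across all 18579 genes tested, 687 were called, or 3.7%. At an unadjusted p under 0.05 there was 1 member, Scd1, beside 3990 genes in all, and DESeq2 and limma voom called 0 as well. The member changes ran from -0.13 to 0.24 on the log2 scale with a median of -0.06, against a median of -0.02 over all genes.

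Scd1, a stearoyl-CoA desaturase, had 116, 120, 145 and 134 CPM in the GFP libraries and 146, 164, 152 and 148 CPM in the RXRa libraries. All 4 RXRa libraries of Scd1 lay above all 4 controls, the narrowest gap being 145 against 146 CPM. The share of all genes whose groups did not overlap was not computed, here or in the sorted nuclei. The fitted change was 0.24 on the log2 scale (SE 0.08, edgeR adjusted p = 0.116), and leaving out single libraries gave 0.19 to 0.30. Fasn had 397 to 416 CPM in GFP and 356 to 403 CPM in RXRa libraries, with 3 of 4 RXRa libraries below every control. Its fitted change was -0.11 (SE 0.05, edgeR adjusted p = 0.28). Scd2, the desaturase that dominates in brain, was nearly level, with 1351 to 1493 CPM in GFP and 1280 to 1407 CPM in RXRa libraries.

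The cholesterol exporters overlapped between the bulk groups. Abca1 had 236, 190, 128 and 184 CPM with GFP and 133, 182, 174 and 196 CPM with RXRa. Its spread among controls was wider than the difference, and the fitted change of -0.11 (SE 0.18) changed sign without 2 of the libraries in turn. Abcg1 was the tighter of the pair, at 141 to 163 CPM against 147 to 157 CPM. Apoe had 1307 to 1752 CPM against 1394 to 1516 CPM. Srebf1, Mylip, Lpcat3 and Lpl also overlapped, with changes of 0.06 (SE 0.08), 0.13 (SE 0.12), -0.0020 (SE 0.10) and -0.11 (SE 0.08) on the log2 scale.

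**Figure D1:**
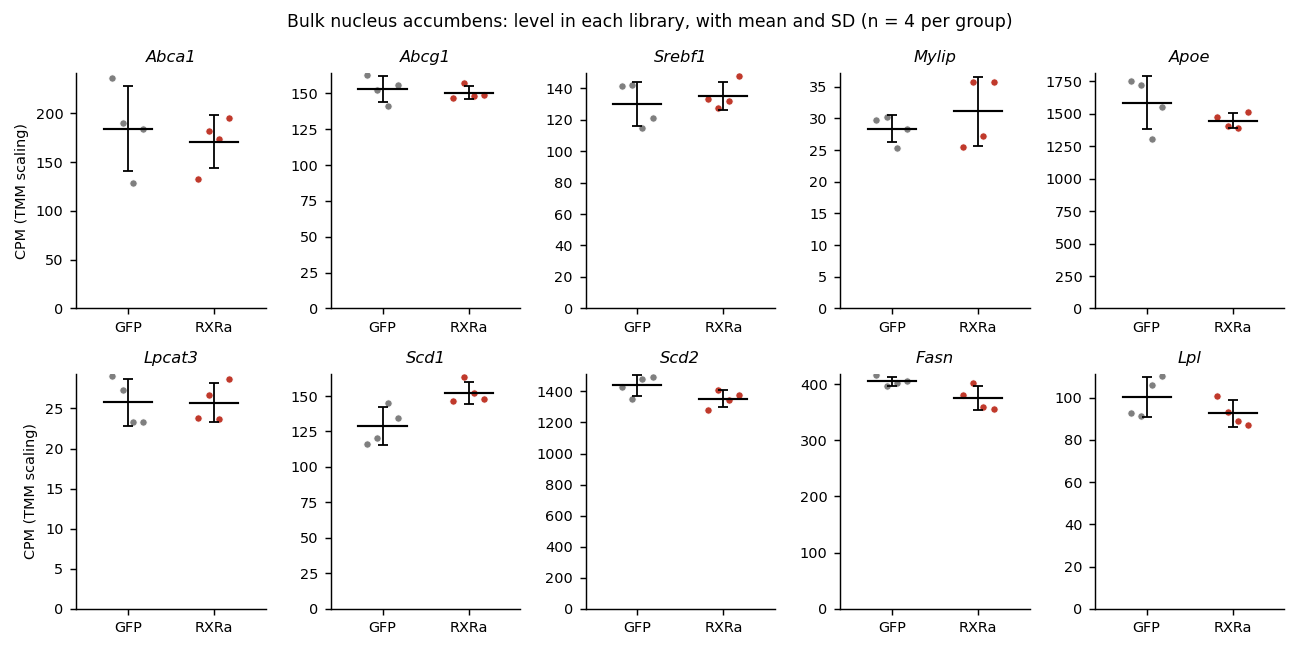
Level of each member in bulk nucleus accumbens in CPM (vertical axis, linear, from 0) for HSV-GFP (grey) and HSV-RXRa-GFP (red); points are libraries, black lines the mean with SD, n = 4 per group. Scd1 is the member whose groups do not overlap, at 116 to 145 CPM against 146 to 164 CPM.

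Some other genes of the pathway were called in bulk, where 3.7% of all genes tested were called and 3.01% were called as higher. Nr1h3, which encodes LXR alpha, rose from 5.50 ± 0.853 to 10.2 ± 1.77 CPM (SD, n = 4 each), which is 0.89 on the log2 scale (SE 0.16, edgeR adjusted p = 0.0218). Its 4 RXRa libraries, at 7.73 to 11.9 CPM, lay above the 4 controls at 4.40 to 6.26 CPM. Abca7, a lipid transporter of microglia and neurons, rose by 0.52 (SE 0.09, edgeR adjusted p = 0.0222), and the desaturase Fads2 rose by 0.22 (SE 0.05, edgeR adjusted p = 0.0398). Nr1h2 had a change of 0.20 (SE 0.06, edgeR adjusted p = 0.11). The mouse Rxra, Rxrb and Rxrg genes were not called, at -0.12, -0.01 and -0.13. By list, 1 of 5 receptors, 0 of 6 other LXR targets tested, 0 of 20 cholesterol synthesis genes, 1 of 15 fatty acid genes and 1 of 12 trafficking genes were called, all higher. With single libraries left out the changes stayed at 0.80 to 1.01 for Nr1h3, 0.46 to 0.60 for Abca7 and 0.19 to 0.24 for Fads2, while most of these fits missed the threshold. Nr1h3 and Abca7 lost their calls without GFP replicate 2 or 4 or without RXRa replicate 2, 3 or 4 (edgeR adjusted p up to 0.0938 and 0.0875), and Fads2 without any library but RXRa replicate 1 (up to 0.121). Without GFP replicate 4 the 687 calls among all genes became 9, and they were 175 to 1016 without each of the others.

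Cell type markers were set beside the same bulk groups, where 3.7% of all genes tested were called. All 10 genes of an interferon response list and 5 of 6 T cell markers rose. Among 6 macrophage and monocyte markers 1 rose, and the summed level of that list was 72.9 to 225 CPM in GFP and 187 to 366 CPM in RXRa libraries. None of 8 microglia markers was called, with sums of 820 to 1277 and 946 to 1341 CPM. Oligodendrocyte markers summed to 5183 to 5764 CPM in GFP and 3154 to 5461 CPM in RXRa libraries, with 0 of 8 called and all 8 below 0. Of 8 astrocyte markers 1 rose and 1 fell. Of 5 D2 neuron markers tested 1 fell, and all 5 were below 0. The lists of D1 neuron, endothelial and mural, and oligodendrocyte precursor markers had 0 called. No marker gene of these lists was at 0 in a whole group. The part of these cells in the levels of Nr1h3, Abca7, Scd1 or Fasn was not tested, and in bulk tissue fewer cells of a type and less RNA per cell cannot be told apart.

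In sorted nuclei each member was first set against the read density of silent genes. That density was computed per library as CPM divided by gene length in kb, and its median was taken over 1576 silent protein-coding genes on autosomes, each 5 kb or longer. Over the 35 libraries, the median ratio of gene-body density to it was 5.32 for Apoe and 5.21 for Scd2. Mylip stood at 1.92, Lpl at 1.82 and Abcg1 at 1.64. Fasn at 1.502, Lpcat3 at 1.49, Scd1 at 1.35, Srebf1 at 1.23 and Abca1 at 1.21 lay inside the 5th to 95th percentile of the silent genes themselves, 0.352 to 1.56. The median over 15454 other protein-coding genes of the same kind was 1.37. Apoe, at 3.08 kb, is shorter than the 5 kb minimum of both reference sets. Exons cover 2.14 of 3.08 kb in Apoe and 10.4 of 129 kb in Abca1. The part of such differences in the order of the ratios was not tested. Lpcat3 overlaps Emg1 and Srebf1 overlaps Rai1 on the opposite strand. Use of strand in counting is not given in the sources used here, so their reads may be partly shared. Scd1 and Scd2 are similar copies whose reads counting could also split.

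**Figure D2:**
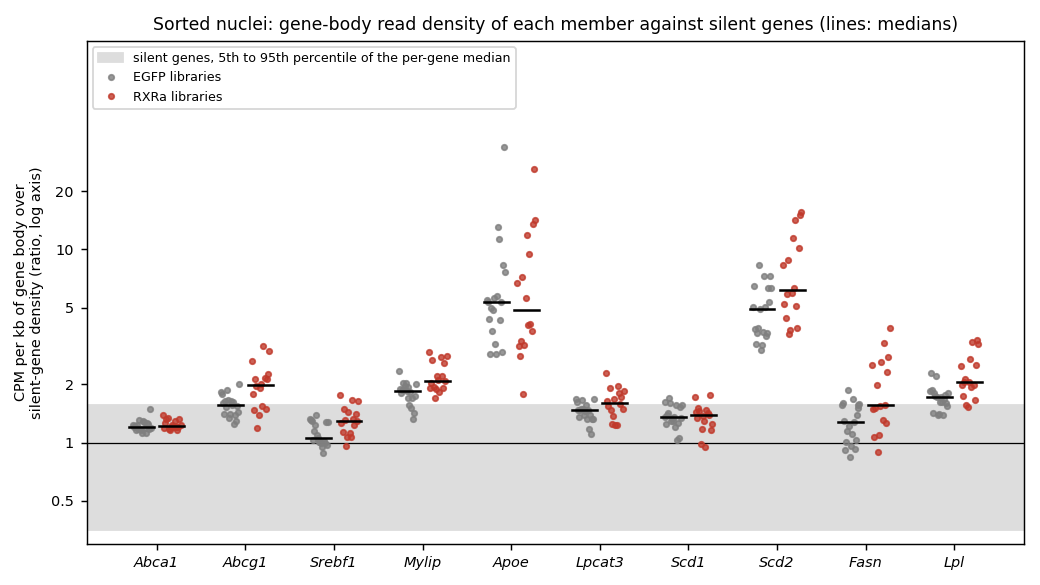
Gene-body read density of each member divided by the silent-gene density of the same sorted library (vertical axis, ratio, log scale), for 19 EGFP libraries (grey) and 16 RXRa libraries (red), with medians as black lines; the band spans 0.352 to 1.56, the 5th to 95th percentile of silent genes. Apoe and Scd2 stand well above the band in most libraries, while Abca1 stays within it in every library, at 1.13 to 1.49. The band comes from genes of 5 kb or longer, and Apoe is 3.08 kb long.

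In D1 nuclei none of the 10 members was called over both sexes, as for every gene of 43902 tested (0%). At an unadjusted p under 0.05 edgeR gave 1 member and 3518 genes, and DESeq2 and limma voom called 0 members. The member was Scd1, with a change of -0.19 (SE 0.08, edgeR adjusted p = 0.588). It had 8.80 to 10.3 CPM in female EGFP and 8.46 to 9.50 CPM in female RXRa libraries, then 8.88 to 11.7 and 7.17 to 9.05 CPM in males. Those ranges overlapped in both sexes. The other changes ran from -0.20 to 0.20 on the log2 scale, with a median over the 10 members of -0.00035 against -0.01 over all genes. By sex the count was 0 in females (0% of all genes) and 0 in males (0%), with 0 and 1 members at an unadjusted p under 0.05. The test of the difference between sexes called 0 members (0% of all genes) and had 0 at an unadjusted p under 0.05. None of the receptors or pathway lists had a called gene in D1.

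In D2 nuclei RXRa went with higher levels of 5 members and a lower level of 1 over both sexes. Lpl, Mylip, Abcg1, Fasn and Scd2 rose and Abca1 fell, while Srebf1, Scd1, Apoe and Lpcat3 did not pass the test. This count of 6 of 10 stands against 22.1% of all 43902 genes called, 14.9% higher and 7.14% lower. The genes tested include many at low levels, while the lowest member mean was 9.04 CPM (Scd1). With the filter set at a mean of at least 1 CPM, 10336 of 32544 genes were called, 6366 of them higher. Members were chosen with earlier results of these data known, so the count is no independent test of the set. The members' median change was 0.20, against -0.04 over all genes. Members called as higher moved by 0.25 to 0.69 on the log2 scale.

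Lpl, the lipoprotein lipase, had 22.3, 24.7, 22.8 and 21.1 CPM in the D2 female EGFP libraries and 36.0, 28.04, 34.6 and 23.5 CPM with RXRa. In males it had 24.3, 26.2, 22.8, 22.9 and 23.6 CPM with EGFP and 23.2, 29.8, 43.8 and 34.9 CPM with RXRa. In each sex 3 of 4 RXRa libraries lay above every control and the fourth within the control range. The change was 0.44 (SE 0.10, edgeR adjusted p = 0.0111).

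Mylip, the ligase that degrades lipoprotein receptors, was the member whose groups separated in both sexes. It had 19.3, 18.5, 21.3 and 19.0 CPM with EGFP and 22.9, 22.0, 23.9 and 21.5 CPM with RXRa in females. The male libraries gave 20.2, 16.2, 16.8, 21.4 and 21.5 CPM with EGFP and 22.0, 25.1, 22.2 and 24.9 CPM with RXRa. The lowest RXRa library exceeded the highest control in each sex, by under 1 CPM. How many of all genes separated in this way was not counted. The change was 0.25 (SE 0.06, edgeR adjusted p = 0.0112).

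Fasn and Scd2 had the largest changes of the members called, and their RXRa libraries were widely spread. Fasn, the fatty acid synthase, had 10.6, 16.7, 12.6 and 9.86 CPM in female EGFP and 24.03, 13.1, 23.7 and 12.8 CPM in female RXRa libraries. In males it had 10.3, 14.3, 14.8, 16.1 and 14.3 CPM with EGFP and 12.2, 18.9, 24.8 and 29.1 CPM with RXRa. In all, 2 female and 3 male RXRa libraries of Fasn exceeded every control, and its change was 0.58 (SE 0.17, edgeR adjusted p = 0.0193). Scd2 showed the same libraries as high. It had 25.1, 51.1, 34.9 and 26.4 CPM in female EGFP and 74.2, 44.9, 72.0 and 29.4 CPM in female RXRa libraries. In males it had 26.0, 45.6, 37.0, 52.8 and 40.1 CPM with EGFP and 26.5, 58.4, 95.7 and 82.2 CPM with RXRa. Its change was 0.69 (SE 0.22, edgeR adjusted p = 0.0262).

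The exporters Abca1 and Abcg1 moved in opposite directions. Abcg1 had 50.3, 50.1, 51.2 and 42.4 CPM in female EGFP and 59.3, 50.3, 73.8 and 56.6 CPM in female RXRa libraries. In males it had 44.8, 42.9, 49.2, 48.1 and 58.6 CPM against 46.1, 56.0, 65.8 and 71.5 CPM. Its groups overlapped in both sexes, and the change was 0.30 (SE 0.09, edgeR adjusted p = 0.0173). Abca1 had 84.7, 87.9, 80.9 and 82.1 CPM in female EGFP and 78.2, 83.7, 64.2 and 68.1 CPM in female RXRa libraries. In males it had 87.3, 88.4, 80.3, 106 and 74.0 CPM against 77.1, 68.2, 82.7 and 63.8 CPM. Its change was -0.22 (SE 0.06, edgeR adjusted p = 0.0156). Relative to the silent-gene density of the same library, Abca1 had similar medians in the groups. The ratio was 1.24 in female EGFP, 1.22 in female RXRa, 1.25 in male EGFP and 1.22 in male RXRa libraries. For Lpl the same ratio had medians of 1.62 and 2.36 in females and 1.69 and 2.88 in males. The silent-gene density itself was lower with RXRa, by library totals. Its medians were 0.547 and 0.435 CPM per kb in female EGFP and RXRa libraries, and 0.557 and 0.428 in males. A ratio to it therefore rises with RXRa even where the CPM of a gene stays level.

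The remaining D2 members were not called. Srebf1 had 11.8 to 12.4 CPM in female EGFP and 12.9 to 15.0 CPM in female RXRa libraries, which did not overlap, and 12.7 to 15.9 against 14.4 to 15.3 CPM in males, which did. Its change of 0.16 (SE 0.06) missed the threshold (edgeR adjusted p = 0.0577), was called by DESeq2 (adjusted p = 0.0282) and was -0.0090 with library totals as the scale. Scd1 had a change of -0.18 (SE 0.09, edgeR adjusted p = 0.111) and Lpcat3 of 0.01 (SE 0.06). Apoe ranged most widely, from 4.99 to 57.6 CPM in EGFP and from 5.52 to 38.5 CPM in RXRa libraries. Its change of -0.19 (SE 0.35) became 0.34 without D2 male EGFP replicate 4. That library, at 57.6 CPM of Apoe, also had the highest sums of astrocyte markers (210 CPM) and oligodendrocyte markers (328 CPM) among the D2 libraries, where the others had 125 to 169 and 159 to 261 CPM. The part of glial RNA in Apoe was not tested.

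**Figure D3:**
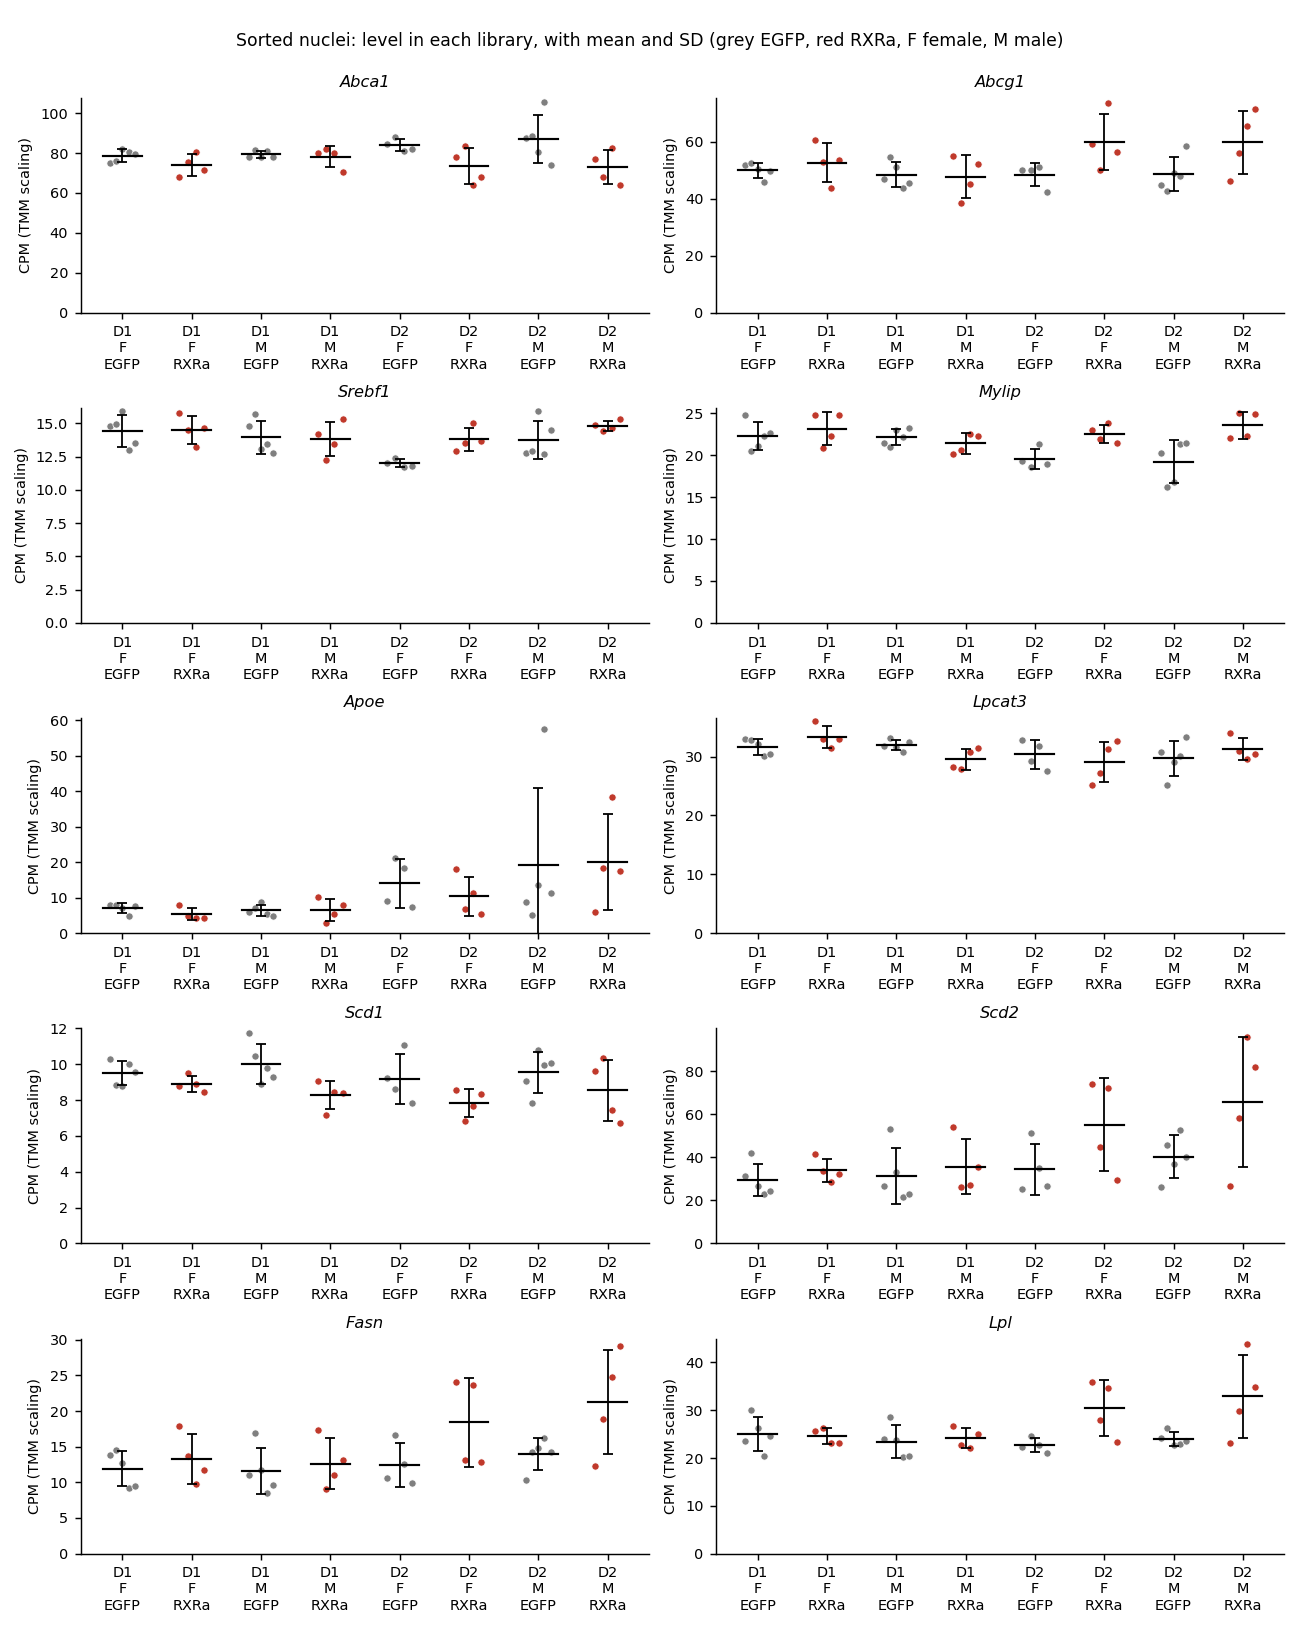
Level of each member in sorted nuclei in CPM (vertical axis, linear, from 0) by population, sex (F, M) and vector; points are libraries (grey EGFP, red RXRa) and black lines the mean with SD, 4 or 5 libraries per group, with SD bars cut at 0. In D2, Mylip separates in both sexes, at 18.5 to 21.3 against 21.5 to 23.9 CPM in females, while Fasn, Scd2 and Lpl keep at least 1 RXRa library of each sex within the control range.

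The 6 D2 changes kept their direction with any single D2 library left out, at 0.33 to 0.51 for Lpl, 0.22 to 0.30 for Mylip, 0.23 to 0.35 for Abcg1, 0.47 to 0.68 for Fasn, 0.55 to 0.83 for Scd2 and -0.27 to -0.15 for Abca1. Their adjusted p-values crossed the threshold in some of these fits, reaching 0.0569 to 0.0924. Without D2 female RXRa replicate 4 the count was 0, and without D2 male RXRa replicate 5 it was 2, Lpl and Mylip. Abca1 also lost its call without D2 male EGFP replicate 4 (edgeR adjusted p at most 0.0625 over these). Scd2 also lost its call without female EGFP replicates 1 or 5, female RXRa replicate 2, male EGFP replicate 1 or male RXRa replicate 3 (at most 0.0924). Srebf1 gained a call without male EGFP replicate 3 or 4, and Scd1 without male RXRa replicate 2. Female RXRa replicate 4 and male RXRa replicate 5 had the lowest shares of silent-gene counts in D2, 3.81% and 4.17%, and the most vector RXRa counts, 13017 and 8478. The D2 EGFP libraries had 5.43% to 6.23% and all D2 RXRa libraries 3.81% to 6.16%. With that share as a covariate 0 members were called, the smallest adjusted p was 1, and 2 members, Lpl at 0.34 (SE 0.12) and Mylip at 0.17 (SE 0.07), had an unadjusted p under 0.05. Abca1 was then at -0.09 (SE 0.06), Fasn at 0.29 (SE 0.20), Scd2 at 0.42 (SE 0.26) and Abcg1 at 0.07 (SE 0.08). The same covariate left 0 called genes among all 43902. When the D2 libraries were fitted alone, 3 members were called (Lpl, Mylip and Fasn).

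Scaling set part of the split between higher and lower. With library totals in place of TMM factors the median change of all genes moved from -0.04 to -0.20, and 2057 of 11391 called genes were higher, where the TMM fit had 6548 of 9683. On that scale 4 members were called. Lpl at 0.26 and Fasn at 0.40 were higher, and Abca1 at -0.38 and Scd1 at -0.34 were lower. Mylip was at 0.09, Abcg1 at 0.12 and Scd2 at 0.50, none of them called.

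**Figure D4:**
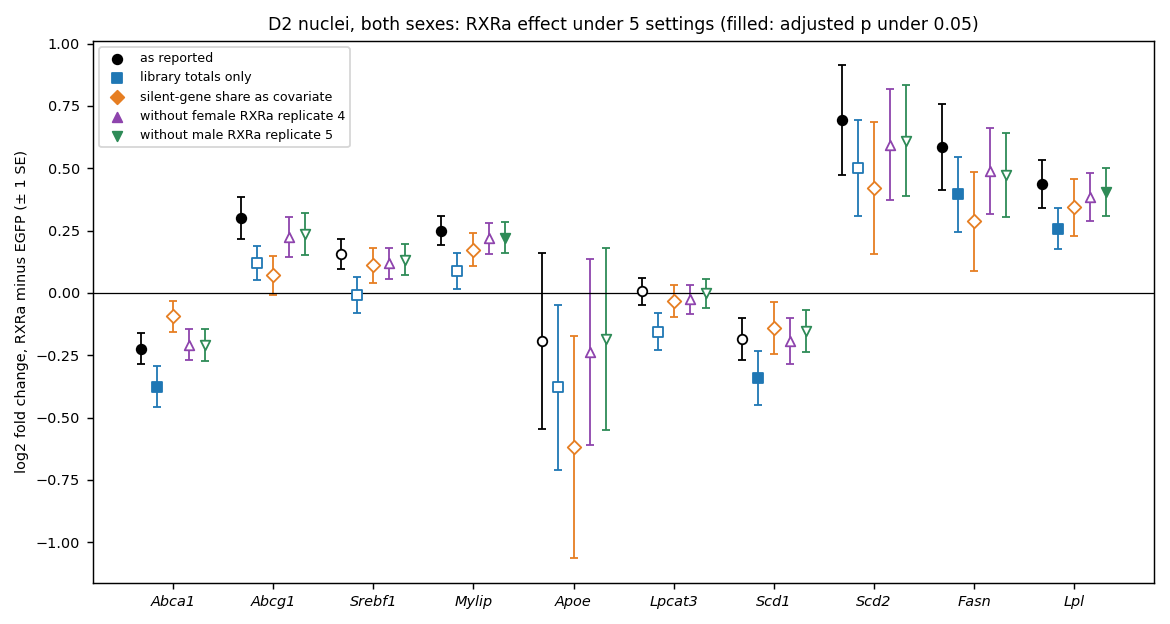
Log2 fold change of each member in D2 nuclei over both sexes (vertical axis, RXRa minus EGFP, bars ± 1 SE) under 5 settings; filled symbols have an adjusted p under 0.05. The reported fit has 6 filled members, library totals 4, the silent-gene covariate 0, and the fits without female RXRa replicate 4 and male RXRa replicate 5 have 0 and 2.

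Within a sex no member was called in D2, in females (0% of all genes) or in males (0%). At an unadjusted p under 0.05 edgeR gave 7 members in females, beside 11080 of all 43902 genes, and 6 in males, beside 8656. DESeq2 called 2 members and 3672 genes in females and 0 members and 23 genes in males. Without D2 female RXRa replicate 3 the female count was 2, beside 6699 of 44444 genes, and without D2 male RXRa replicate 1 the male count was 6, beside 5986 of 44366 genes. By sex, Lpl was at 0.42 (SE 0.14) in females and 0.45 (SE 0.13) in males, Scd2 at 0.68 (SE 0.32) and 0.70 (SE 0.30), and Abca1 at -0.19 (SE 0.09) and -0.26 (SE 0.09). Apoe was at -0.44 (SE 0.52) and 0.05 (SE 0.47), Lpcat3 at -0.06 (SE 0.08) and 0.07 (SE 0.08), and Srebf1 at 0.20 (SE 0.09) and 0.11 (SE 0.08). The test of the difference between the sexes called 0 members (0% of all genes), with 0 at an unadjusted p under 0.05 in edgeR and 0 called by DESeq2.

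Whether the effect differed between D2 and D1 was tested directly, since a call in D2 and none in D1 does not show it. No member passed (0% of all genes), and DESeq2 and limma voom called 0 too. At an unadjusted p under 0.05 edgeR gave 3 members, beside 3609 genes in all. The D2 change exceeded the D1 change by 0.42 for Lpl (SE 0.13, edgeR adjusted p = 0.601), by 0.25 for Mylip (SE 0.08) and by 0.27 for Abcg1 (SE 0.12). For Scd2 and Fasn the differences were 0.49 (SE 0.31) and 0.44 (SE 0.24).

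**Figure D5:**
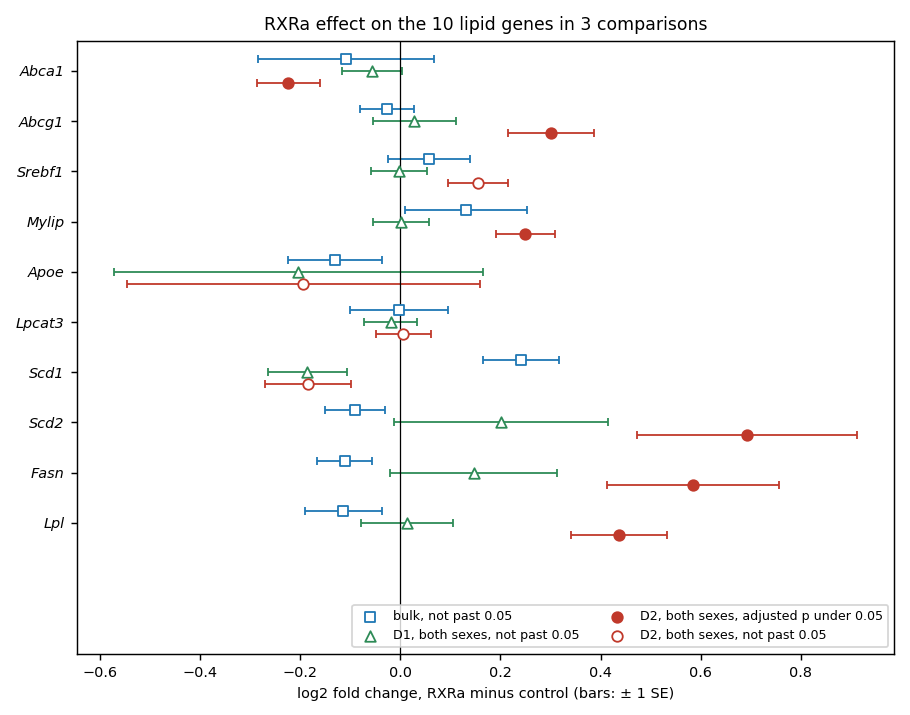
Log2 fold change of each member, RXRa minus control (horizontal axis, bars ± 1 SE), in bulk tissue (squares), D1 nuclei (triangles) and D2 nuclei (circles) over both sexes; filled symbols have an adjusted p under 0.05. The filled symbols are 6 members in D2, with Scd2 at 0.69 the largest and Abca1 at -0.22 the lowest.

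The populations were also compared under each vector. No member was called between D2 and D1 with EGFP, where 0.121% of all genes were. Apoe was at 1.27 (SE 0.34, edgeR adjusted p = 0.176), Mylip was at -0.20 (SE 0.06) and Srebf1 at -0.14 (SE 0.06), and these 3 had an unadjusted p under 0.05, as did 4620 genes in all. DESeq2 and limma voom called 0. With RXRa, 4 members were higher in D2 than in D1, Lpl at 0.38 (SE 0.10), Fasn at 0.61 (SE 0.18), Scd2 at 0.79 (SE 0.23) and Apoe at 1.28 (SE 0.38), with edgeR adjusted p-values of 0.0300 to 0.0379. The share of all genes called there was 8.36%, and 6.85% were higher. This comparison shares its D2 RXRa libraries with the D2 comparison given before. It had 0 called members with limma voom, with library totals and with the silent-gene covariate. With 1 library left out, Apoe, Scd2 and Fasn each kept their call in 6 of 16 fits and Lpl in 7. Among D2 RXRa libraries, male replicate 3 was highest in Apoe (38.5 CPM) and in the sums of astrocyte (169 CPM) and oligodendrocyte markers (261 CPM). The part of glial RNA in these Apoe differences was not tested.

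Pathway genes beyond the members also changed in D2, where 14.9% of all genes were called as higher and 7.14% as lower. With the filter set at a mean of at least 1 CPM, 6366 of 32544 genes were called as higher. These lists too were chosen with earlier results of these data known, so their counts are no independent test. Of 20 genes of cholesterol synthesis and uptake under SREBP2, the sister factor of SREBP1, 8 rose and 0 fell. Insig1, which retains the SREBP precursor in the endoplasmic reticulum, rose by 0.46 (SE 0.15, edgeR adjusted p = 0.0269). Among 16 fatty acid and triglyceride genes 6 rose, such as Fads1 at 0.38 (SE 0.10) and Mid1ip1 at 0.44 (SE 0.16), and the malic enzyme Me1 fell by 0.15 on the log2 scale (SE 0.05). In the trafficking list of 12 genes 4 rose and 1 fell. Lrp1, a receptor for Apoe-bearing particles, rose by 0.60 (SE 0.14, edgeR adjusted p = 0.0113), and Vldlr, a receptor that Mylip targets, by 0.50 (SE 0.15, edgeR adjusted p = 0.0196). The gene that fell was Ch25h, at -0.68 (SE 0.20), named after its value was seen since its mean was only 0.628 CPM.

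Receptors and other LXR targets held 1 called gene each in D2. Among 5 receptors it was Nr1h2 at 0.42 (SE 0.14, edgeR adjusted p = 0.0326). Nr1h3, which rose in bulk, was at -0.11 (SE 0.08) in D2 and -0.08 (SE 0.07) in D1. The mouse Rxra gene was at -0.05 (SE 0.08) in D2, Rxrb at 0.21 (SE 0.11) and Rxrg at 0.26 (SE 0.11), none of them called. Of 10 other LXR targets 1 rose, the sterol transporter Abcg4 at 0.31 (SE 0.09, edgeR adjusted p = 0.0144). The list medians were 0.15 for SREBP2 genes, 0.13 for fatty acid genes, 0.11 for trafficking, 0.21 for receptors and -0.06 for other LXR targets, beside -0.04 over all genes. All called genes named from these lists for D2 lost their call with the silent-gene covariate, and also without D2 female RXRa replicate 4, where 0 of 44402 genes were called.

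Markers of neurons and of other cells were set beside the same D2 groups, where 14.9% of all genes were called as higher and 7.14% as lower. The D2 markers summed to 762 to 1472 CPM in EGFP and 890 to 2743 CPM in RXRa libraries, and 4 of 5 rose, with Drd2 at 0.75 (SE 0.16, edgeR adjusted p = 0.0111). The 6 D1 markers summed to 146 to 183 CPM in EGFP and 141 to 259 CPM in RXRa libraries, and 3 rose and 1 fell. Astrocyte markers summed to 144 to 210 and 125 to 169 CPM with 2 of 8 lower, microglia markers to 124 to 156 and 140 to 159 CPM with 1 higher and 1 lower, and oligodendrocyte markers to 159 to 328 and 171 to 261 CPM with 0 of 8 called. Endothelial and mural markers summed to 269 to 318 and 245 to 322 CPM with 2 of 8 lower, and macrophage and monocyte markers to 107 to 123 and 93.8 to 115 CPM with 1 higher and 1 lower of 6. Of the 10 interferon response genes, all of which rose in bulk, 4 fell in D2 and 0 rose, with a median of -0.27 and sums of 57.4 to 91.6 CPM in EGFP and 55.5 to 67.3 CPM in RXRa libraries. T cell and oligodendrocyte precursor markers had 0 of 6 called each. No gene of these lists was at 0 in a whole group. The part of these shifts in the member calls was not tested.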

How the data were processed

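RNA counts were analysed for 44 libraries, 8 of bulk tissue made with poly(A) selection and 36 of sorted nuclei whose total RNA was depleted of ribosomal RNA and made into stranded low-input libraries, per the labels' protocols. The deposited values are whole-number read counts per gene, not normalized. FastQC, Trimmomatic, HISAT2, Picard, featureCounts and Subread and the build GRCm38 are named, without versions, in the submitters' processing notes; settings for strand and introns are not given in the sources used here. For 1 sorted library, title and vector label disagree, and that library entered no comparison. Symbols and positions come from GENCODE M21, which holds 55394 of 55487 identifiers. The 2 vector entries, at most 0.108% of a library, stayed out of totals and tests.

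The counts were fitted with edgeR 4.0.16 in R 4.3.3 (quasi-likelihood test, filterByExpr by group, TMM), bulk as 2 groups and the 35 assigned sorted libraries as 8 groups with a shared spread, in 12 contrasts with the sexes weighted equally. SE is the log2 fold change divided by the root of F. Called means a Benjamini-Hochberg adjusted p under 0.05 over all genes tested. The procedure was tested on simulated data with independent counts and the same spread for every gene. That test checks the code and cannot vouch for calls in these libraries. DESeq2 1.42.0, limma 3.58.1 voom, other scalings, filters, covariates and single libraries left out were alternatives. No replicate pair of 72 agreed within sampling noise (chi-square per degree of freedom at least 1.911). D1 male EGFP replicate 2 stood furthest from its group, at 64.8 to 73.5 against its other libraries, and stayed in the fits. Figures used Matplotlib 3.10.9. All members are named; from each pathway list, the receptors and at most 2 called genes that rose most and 2 that fell most at a mean of at least 1 CPM, except 1 gene that is not reported here. Members and lists were chosen with earlier results of these data known.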

Additional observations from a re-analysis of the deposited data

Results flagged for a closer look

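Dixon's test for a library far from the others of its group was run on 100 groups of 4 or 5 libraries (10 members in 10 groups), where chance gives about 5 such results, and 4 were found. Abca1 in D1 male RXRa replicate 5 was at 70.3 CPM against 80.0 to 81.8 CPM in the others. Abcg1 in D2 female EGFP replicate 5 was at 42.4 CPM against 50.1 to 51.2 CPM. Apoe in D1 female RXRa replicate 1 was at 7.88 CPM against 4.26 to 4.79 CPM. Apoe in D2 male EGFP replicate 4 was at 57.6 CPM against 4.99 to 13.5 CPM. The library without a group held 2941 counts of the vector RXRa sequence, where sorted EGFP libraries held 0 to 17 and sorted RXRa libraries 1216 to 13017.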

How the results depend on the processing

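Counts of called members were 0 in bulk, in D1 and in the tests of a difference between sexes or populations under every alternative and every single library left out. The D2 count of 6 was 4 to 7 with other tools, scalings and filters, 3 with the D2 libraries alone, 0 with the silent-gene share as covariate and 0 to 7 with 1 library left out. It was 0 in D2 females but 2 with DESeq2 and 0 to 2 with a library left out, and 0 in D2 males but 0 to 6. The D2 against D1 count under RXRa, 4, was 0 with limma voom, library totals, the replicate block and the covariate, 2 with the robust fit, and 0 to 5 with a library left out. Whether samples with the same replicate number belong together is not known here. Correlations of same-number samples ran from -0.56 to 0.53 in bulk and -0.43 to 0.64 in the sorted sets. Those of other pairs ran from -0.56 to 0.54 and from -0.58 to 0.53. With 3 or 4 same-number pairs per set, these values cannot decide whether the numbers pair samples. The block left 6 members called in D2, and took all bulk calls from 687 to 0 and all D2 calls from 9683 to 8535. The cause of these changes was not tested.

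Changes of sign concerned uncalled genes, most of them near 0. In bulk, library totals gave Abcg1 0.0098, Lpcat3 0.035 and Rxrb 0.028, and Lpcat3 was 0.0051 with DESeq2, 0.0014 with voom, 0.0050 with RLE and 0.00041 with the CPM filter. In D1, library totals gave Abcg1 -0.045, Mylip -0.072, Lpl -0.057 and Rxrb -0.033. The covariate gave there Abca1 0.019, Abcg1 -0.10, Mylip -0.040, Fasn -0.016, Lpl -0.036, Rxrb -0.093 and Rxrg -0.060. Srebf1 in D1 was 0.012 with DESeq2, 0.011 with RLE, 0.012 with the CPM filter, 0.0011 unfiltered and 0.0017 with D1 libraries alone, and Mylip -0.00078 with voom. In D2, library totals gave Srebf1 -0.0090 and Lpcat3 -0.16, the CPM filter Lpcat3 -0.0014, and the covariate Lpcat3 -0.033, Rxrb -0.046 and Rxrg -0.016. For D2 against D1 under RXRa, library totals gave Srebf1 -0.070 and Mylip -0.035, the covariate Abca1 0.0033 and Srebf1 -0.0033, and the CPM filter Srebf1 -0.0017.

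With single libraries left out, bulk ranges that crossed 0 were -0.25 to 0.030 for Abca1, -0.065 to 0.0036 for Abcg1, -0.056 to 0.060 for Lpcat3 and -0.030 to 0.032 for Rxrb. In D1 they were -0.012 to 0.066 for Abcg1, -0.029 to 0.019 for Srebf1, -0.021 to 0.027 for Mylip, -0.019 to 0.051 for Lpl, -0.066 to 0.0092 for Rxra and -0.021 to 0.090 for Rxrb. In D2 they were -0.48 to 0.34 for Apoe and -0.048 to 0.041 for Lpcat3. For D2 against D1 they were -0.056 to 0.013 for Abcg1 under EGFP and -0.034 to 0.043 for Srebf1 under RXRa. What depth limits in sorted nuclei was not tested.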

Other observations

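The D2 female library whose title and vector label disagree was compared with no group. With library totals as the scale, it had 79.9 CPM of Abca1, 23.0 CPM of Mylip, 25.5 CPM of Lpl, 16.9 CPM of Fasn, 44.6 CPM of Scd2 and 12.3 CPM of Apoe, each inside the range of the other sorted libraries. Its Abcg1 level of 60.5 CPM lay just above their range of 38.0 to 59.9 CPM.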
